A study of Mus musculus with 9 samples.

Results

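Of 9 RNA sequencing libraries made from mouse nucleus accumbens, 5 were rich in microglial transcripts and 4 were poor in them, and the account below describes how these 2 classes of library differed across all genes, whatever the treatment. The classes were chosen by the measured count density of Cx3cr1, the fractalkine receptor of microglia: a library over 20 times background was called microglia-rich. Density is counts per kb of exon, and background is the density of 1134 olfactory receptor genes pooled, which brain cells hardly express. Naive 1, naive 2, RES 1, SUS 1 and SUS 3 were microglia-rich, the number being the replicate. Naive 3, RES 2, RES 3 and SUS 2 were microglia-poor. The same values of the same 9 libraries made the classes and show the differences, so every comparison of rich with poor is a description with no test.

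All mice were male C57BL/6, of an age not given in the labels, which name no altered gene. The naive group (titled WT) was labelled cocaine-naive. Mice of the RES and SUS groups had learned to self-administer cocaine, with a ceiling of 40 infusions while each response was rewarded. Over the next 10 days they were tested on a progressive ratio in sessions of 23 h, each infusion holding 1.2 mg/kg. Brains were collected on day 3 counted from the final session. The genotype field repeats the titles, while the behavioural field calls the RES libraries susceptible and the SUS libraries resilient, so the title names are kept and nothing is read as resilience or susceptibility. Punches from 2 to 3 mice were pooled, digested with papain and sorted with a fluorescent antibody to ChAT, which synthesises acetylcholine. Whether the 3 libraries of a group were separate pools is not in the labels, so the p-values below cover the library-to-library spread and no more.

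Microglia are the resident macrophages of the brain. They depend on signalling through the receptor Csf1r, sense extracellular nucleotides through P2ry12 and neuronal fractalkine through Cx3cr1, and make most of the C1q that tags synapses and debris for removal. They are rich in lysosomal proteases, and enzymatic dissociation of brain tissue at warm temperatures is known to switch on immediate early, chaperone and cytokine genes in them. In bulk RNA, fewer cells of a type and less RNA per cell cannot be told apart, so "rich" and "poor" refer to transcripts only.

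The transcripts that stood highest in the rich libraries belong to microglial surface receptors and lysosomes and to the immediate early response, and promoters of members of these groups are shown so that the sequences in front of the genes can be seen beside their values. Each is the 250 bases before the RefSeq start (GRCm38.p6), 5′ to 3′ on the strand of the gene. They are the members looked at whose window overlapped no annotated exon. Ctss (3:95526536-95526785) and Mpeg1 (19:12460520-12460769) are on the plus strand, as is Fos (12:85473640-85473889), and Btg2 (1:134079156-134079405) and Jun (4:95052223-95052472) are on the minus strand. Capitals mark GAGGAA in the first 2 and TGACGT in the other 3, on either strand.
Ctss: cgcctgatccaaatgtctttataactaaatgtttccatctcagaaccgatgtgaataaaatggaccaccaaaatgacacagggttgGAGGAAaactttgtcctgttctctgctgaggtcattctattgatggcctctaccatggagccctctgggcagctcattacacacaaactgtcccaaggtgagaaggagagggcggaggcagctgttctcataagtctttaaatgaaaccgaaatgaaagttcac
Mpeg1: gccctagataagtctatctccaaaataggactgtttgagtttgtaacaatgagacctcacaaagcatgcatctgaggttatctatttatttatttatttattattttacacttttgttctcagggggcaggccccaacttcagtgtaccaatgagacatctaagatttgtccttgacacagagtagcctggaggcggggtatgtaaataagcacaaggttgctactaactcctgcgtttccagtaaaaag
Btg2: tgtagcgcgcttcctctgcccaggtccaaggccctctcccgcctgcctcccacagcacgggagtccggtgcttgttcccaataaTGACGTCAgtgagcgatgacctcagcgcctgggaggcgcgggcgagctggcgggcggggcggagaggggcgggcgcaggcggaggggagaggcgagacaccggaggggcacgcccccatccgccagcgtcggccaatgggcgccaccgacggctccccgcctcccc
Jun: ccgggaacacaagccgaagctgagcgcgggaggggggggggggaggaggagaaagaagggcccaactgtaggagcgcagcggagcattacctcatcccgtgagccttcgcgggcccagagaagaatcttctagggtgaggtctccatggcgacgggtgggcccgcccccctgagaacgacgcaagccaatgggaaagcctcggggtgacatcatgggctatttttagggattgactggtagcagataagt
Fos: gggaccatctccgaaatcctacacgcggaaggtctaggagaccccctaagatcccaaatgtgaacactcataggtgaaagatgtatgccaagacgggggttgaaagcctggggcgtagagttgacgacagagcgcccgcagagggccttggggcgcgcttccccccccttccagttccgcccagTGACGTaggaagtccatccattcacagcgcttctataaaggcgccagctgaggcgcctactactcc
GAGGAA is the core read by the myeloid factor PU.1 (Spi1), and TGACGT is the core of the cyclic AMP response element. Ctss held 1 match that begins 164 bases before the start, and Mpeg1 held 0. Fos held 1 match at 66 bases, Btg2 held 2 overlapping matches on opposite strands at 166 and 164 bases, and Jun held 0.

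GAGGAA was present in 5 of 19 promoters of the members of the microglia identity list that were higher in the rich libraries by the rule given below (26.3%), in 7 of 19 for macrophage and microglial signalling (36.8%) and in 6 of 17 for lysosome and cathepsins (35.3%), against 23.3% of all 32851 promoters of the same length. TGACGT was present in 8 of 31 promoters of the higher immediate early genes (25.8%), against 6.47% of all promoters. Some genes have several promoters in these counts, and these members matched 16, 16, 15 and 20 genes. Of the windows not printed because they overlap an annotated exon, Cx3cr1 and P2ry12 held 0 matches to GAGGAA, Laptm5 held 1, and Zfp36 held 0 to TGACGT. That choice of windows was made after the matches had been counted. A match is a description of letters and not a bound site.

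The marker values by library were as follows. Cx3cr1 (9:119901616-120069879, build GRCm38) had a density of 23.4, 53.0, 22.6, 62.4 and 68.8 times background in naive 1, naive 2, RES 1, SUS 1 and SUS 3, and at 2.92, 1.44, 1.84 and 2.97 in naive 3, RES 2, RES 3 and SUS 2. Its raw counts were 1717, 1450, 1283, 5056 and 5789 in the rich libraries and 279, 52, 146 and 240 in the poor ones. The library just inside the threshold was RES 1, at 22.6, and the one just outside was SUS 2, at 2.97, and no library lay between these values. P2ry12 (chromosome 3, 59216272 to 59262871) was at 25.9 to 72.9 in the rich libraries and 1.67 to 3.38 in the poor ones. C1qa (chromosome 4, 136895917 to 136898803), a chain of C1q, was at 40.2 to 165 and 3.36 to 7.18. A threshold of 10 for Cx3cr1, or 20 for P2ry12 or C1qa, put all 9 libraries in the same classes. Each group held both classes: RES had 1 rich and 2 poor libraries, and the naive and SUS groups each had 2 rich libraries and 1 poor.

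**Figure D1:**
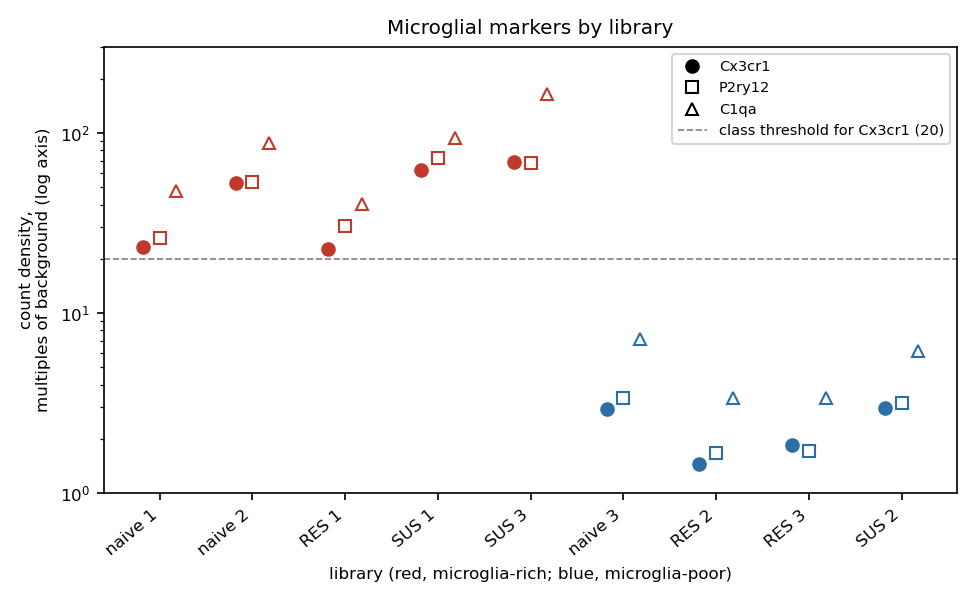
Count density of Cx3cr1, P2ry12 and C1qa in each of the 9 libraries, as multiples of background on a log axis, with microglia-rich libraries in red and microglia-poor libraries in blue. The dashed line is the class threshold for Cx3cr1, 20 times background, which lies between the 22.6 of RES 1 and the 2.97 of SUS 2.

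The libraries also differed in ways that go with the class. Mitochondrial genes took 17.7% to 28.7% of counts in the rich libraries and 9.09% to 17.1% in the poor ones, without overlap. The share of nuclear counts that lay at background density was 23.7% to 37.2% in the rich libraries and 25.2% to 50.3% in the poor ones, with RES 3 highest. Total counts were 4471675 to 11155730 and 4574518 to 10667056, which overlap. The factors that scale libraries to each other (TMM, edgeR's trimmed mean method) were 0.743 to 1.09 and 1.02 to 1.58, again highest in RES 3. Across genes, Spearman correlations were 0.886 to 0.961 between rich libraries, 0.923 to 0.949 between poor ones and 0.864 to 0.951 between classes. The part of these library measures in the gene differences was not tested.

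The comparison across all genes described what accompanied Cx3cr1. A gene was counted as higher when every rich library lay above every poor library in log2 CPM (counts scaled to a common library size with TMM, prior count 2) and the class means differed by at least 1 on that scale, and as lower in the opposite case. Of 39210 genes kept by the filter on low counts, 840 were higher (2.14%) and 93 were lower (0.237%). The rule used this contrast, so nothing is read from these shares. Without the size limit, 1648 genes (4.2%) were higher without overlap and 575 (1.47%) lower. The median difference of all genes was -0.02. Under scaling by total nuclear counts the median moved to -0.18 and the counts to 632 and 258, so that 71.0% of the counted genes were higher instead of 90.0%, and the sign of a difference close to 0 depends on the scaling.

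Most of the higher genes were protein-coding, and most of the lower ones were short predicted genes. Of the higher genes 84.8% were protein-coding and 86.1% exceeded 3 times background in a class. Of the lower genes 11.8% were protein-coding, 83.9% were predicted genes and 53.3% exceeded 3 times background, with a median exonic length of 465 bases against 2112 for all genes. Of all genes, 52.6% were protein-coding and 28.8% exceeded 3 times background. The number of lower genes depended on single libraries: it was 349 without RES 3, 196 without naive 1 or without RES 1, 154 to 162 without naive 2, naive 3, RES 2, SUS 1 or SUS 2, and 72 without SUS 3. The number of higher genes was 754 to 1040 over the same omissions.

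**Figure D2:**
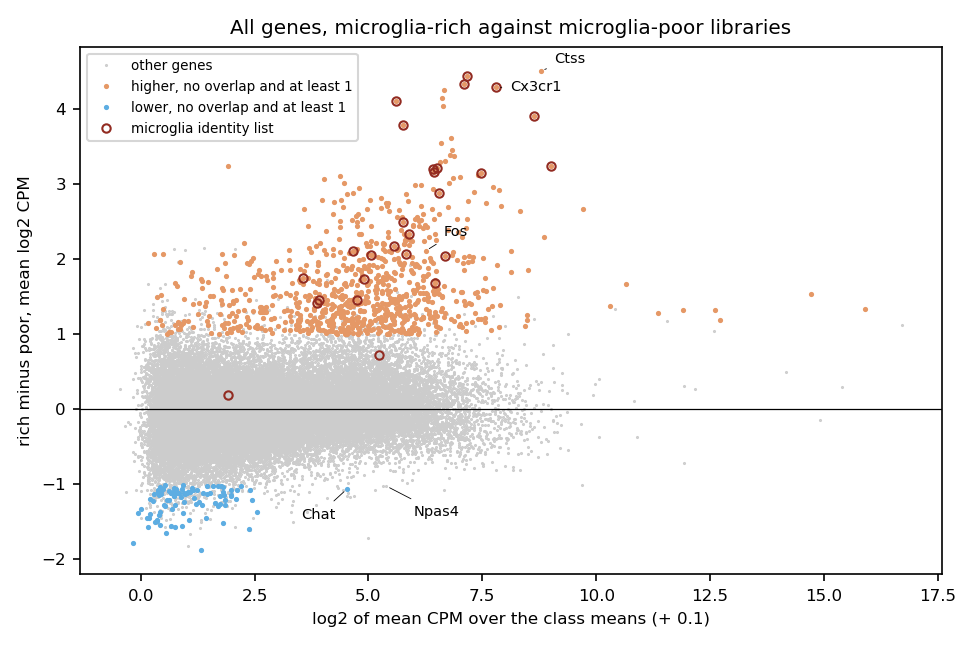
Difference between the means of the microglia-rich and microglia-poor libraries in log2 CPM against the mean level (log2 CPM) for the 39210 genes kept, with the 840 higher genes in orange, the 93 lower genes in blue and the microglia identity list ringed. The upper edge of the cloud is occupied by microglial genes such as Ctss and Cx3cr1, while the lower genes sit at low levels.

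The named genes with the largest positive differences included Ctss, P2ry12, Cx3cr1, C1qc, C1qb, Gpr34, C1qa, Csf1r, Tmem119, Zfp36, Mpeg1, Tmsb4x, Laptm5 and Ctsd, from 4.51 down to 3.38 on the log2 scale. Ctss (chromosome 3, 95526786 to 95556403), the cathepsin of antigen-presenting cells, was at 138, 352, 172, 361 and 475 times background in the rich libraries, in the order used above, and at 23.3, 5.70, 8.57 and 20.6 in the poor ones. Its level was 842 ± 413 CPM (SD, n = 5) against 39.4 ± 23.2 CPM (SD, n = 4), a mean log2 difference of 4.51 or 22.7-fold. Even the highest poor library, naive 3, lay far below the lowest rich one. Csf1r (chromosome 18, 61100598 to 61132149), the receptor for the growth factor Csf1, differed by 3.90. Aif1, which encodes the microglial stain Iba1, differed by 1.91.

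Of the 27 genes of microglia identity, 25 were higher and 0 lower, with a median difference of 2.34 on the log2 scale against -0.02 for all genes. Besides those named, they included Cst3, a secreted protease inhibitor (3.24), Siglech (3.22), Selplg (3.21), Sparc (3.15), Tyrobp, a signalling adaptor (2.11), Trem2, a lipid-sensing receptor (2.05), and Sall1, a transcription factor of microglia (2.05). The exceptions were Sall3, at 0.72, and Ltc4s, at 0.19, whose libraries overlapped between classes. The list's median density was 9.26 to 24.4 times background in the rich libraries and 2.01 to 3.38 in the poor ones. Of the 27 genes, 26 were over 3 times background in the rich libraries and 13 in the poor ones. Inside the labelled groups, the rich minus poor difference of Cx3cr1 was 3.6 in naive, 3.92 in RES and 4.53 in SUS.

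Of 17 measured complement genes, 8 were higher, with a median of 0.99 (0.71 without RES 2). The C1q chains C1qa, C1qb and C1qc differed by 4.04, 4.15 and 4.25, the complement receptor 3 chains Itgam and Itgb2 by 2.81 and 1.54, and the anaphylatoxin receptor C3ar1 by 2.21. C3, the central component of the cascade, differed by -0.12 and C4b, which binds targets downstream of C1q, by -0.31, both with overlapping libraries.

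Myeloid transcription factors were higher for 14 of 19, with a median of 1.75. Cebpa differed by 2.77, Ikzf1 by 2.13, Spi1 by 1.84 and Irf8 by 1.75, all regulators of macrophage development. Spi1, which encodes PU.1, was at 5.05, 10.2, 4.12, 8.55 and 12.8 times background in the rich libraries and at 2.73, 1.99, 1.87 and 2.11 in the poor ones. Of 26 genes of macrophage and microglial signalling, 21 were higher (median 1.51), among them Laptm5, a lysosomal membrane protein of blood cells (3.38), Unc93b1, which delivers Toll-like receptors to endosomes (2.93), Ncf1, a subunit of the phagocyte oxidase (2.75), and the kinase Lyn (2.20). Of 25 Fc, scavenger and phagocytic receptors, 9 were higher (median 0.78), including the Fc receptor chains Fcer1g (2.69) and Fcgr3 (2.65). The receptor Axl differed by 0.04 and the scavenger receptor Marco by -0.17.

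Of 25 lysosomal genes, 17 were higher (median 1.31). Besides Ctss these were led by the proteases Ctsd (3.38), Lgmn (3.12), Ctsz (2.57) and Ctsl (2.25). Of genes that many cell types use in their lysosomes, the proton pump subunit Atp6v1a differed by 0.19 and the cholesterol transporter Npc1 by 0.33.

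Of 22 genes of the disease-associated state of microglia, 4 (18.2%) were higher, against 2.14% of all genes and 92.6% of the microglia identity list. These shares depend on which genes each list holds. Trem2 and Tyrobp, both higher, were counted under microglia identity, as was Cx3cr1, which made the classes. The 4 higher disease-associated genes can be named. They were Ctsd, Ctsb (1.96), Cd9 (1.42) and Ccl6 (1.07), and the median of the disease-associated list was 0.16, or -0.00 under scaling by total nuclear counts. Spp1 differed by -0.04, Lpl by -0.09, Gpnmb by -0.06, Itgax by 0.01 and Igf1 by 0.03, and the levels of all of these were at 0.65 to 2.72 times background in every library. Apoe, a lipid carrier that astrocytes also make, was at 85.7, 197, 137, 164 and 158 times background in the rich libraries and at 222, 300, 44.6 and 95.7 in the poor ones. Its libraries overlapped, and the highest value was in a poor library.

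Of 26 inflammatory cytokine and chemokine genes, 16 were higher (median 1.61). Nfkbia, an inhibitor of NF-kB that NF-kB itself induces, differed by 3.31, Tlr7 by 3.01, Icam1 by 2.56, Tnfaip3 by 2.54, Ccl3 by 2.51, Tnf by 2.43 and Il1a by 2.21. Ccl3, a chemokine, was at 7.60, 39.1, 22.5, 21.9 and 23.5 times background in the rich libraries and at 4.93, 2.77, 3.56 and 3.42 in the poor ones, and naive 1 was the lowest of the rich. Il1b differed by 0.99, Il6 by 0.49 and Ptgs2 by 0.45, each with overlapping libraries. Interferon response genes were higher for 2 of 25, Irf1 (2.06) and Bst2 (1.28), with a median of 0.25.

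Antigen presentation uses MHC class I and class II molecules. Of 14 MHC class I genes, 9 were higher (median 1.27), led by B2m (3.29), the light chain of class I, H2-K1 (2.77) and H2-D1 (2.54). Class I heavy chains are near copies of each other, so the division of reads among them is uncertain. Of 10 MHC class II genes, 1 was higher, H2-DMa (1.06), with a median of 0.59. The class II invariant chain Cd74 was at 14.3, 29.2, 12.9, 37.7 and 39.8 times background in the rich libraries and at 16.8, 4.69, 3.08 and 7.90 in the poor ones. Its mean difference was 1.92, and the poor library naive 3 lay above 2 of the rich libraries.

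Among the receptors for nucleotides and adenosine, P2ry12, P2ry13 (2.17), P2ry6 (1.42) and the adenosine receptor Adora3 (1.04) were higher, 4 of 18. The striatal adenosine receptor Adora2a differed by -0.57 and P2ry1 by -0.64. The list's median was -0.09, and it was 0.06 among genes of at least 10 CPM. The mean of the list was higher in every rich library than in any poor one, so its median and mean differ in sign.

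**Figure D3:**
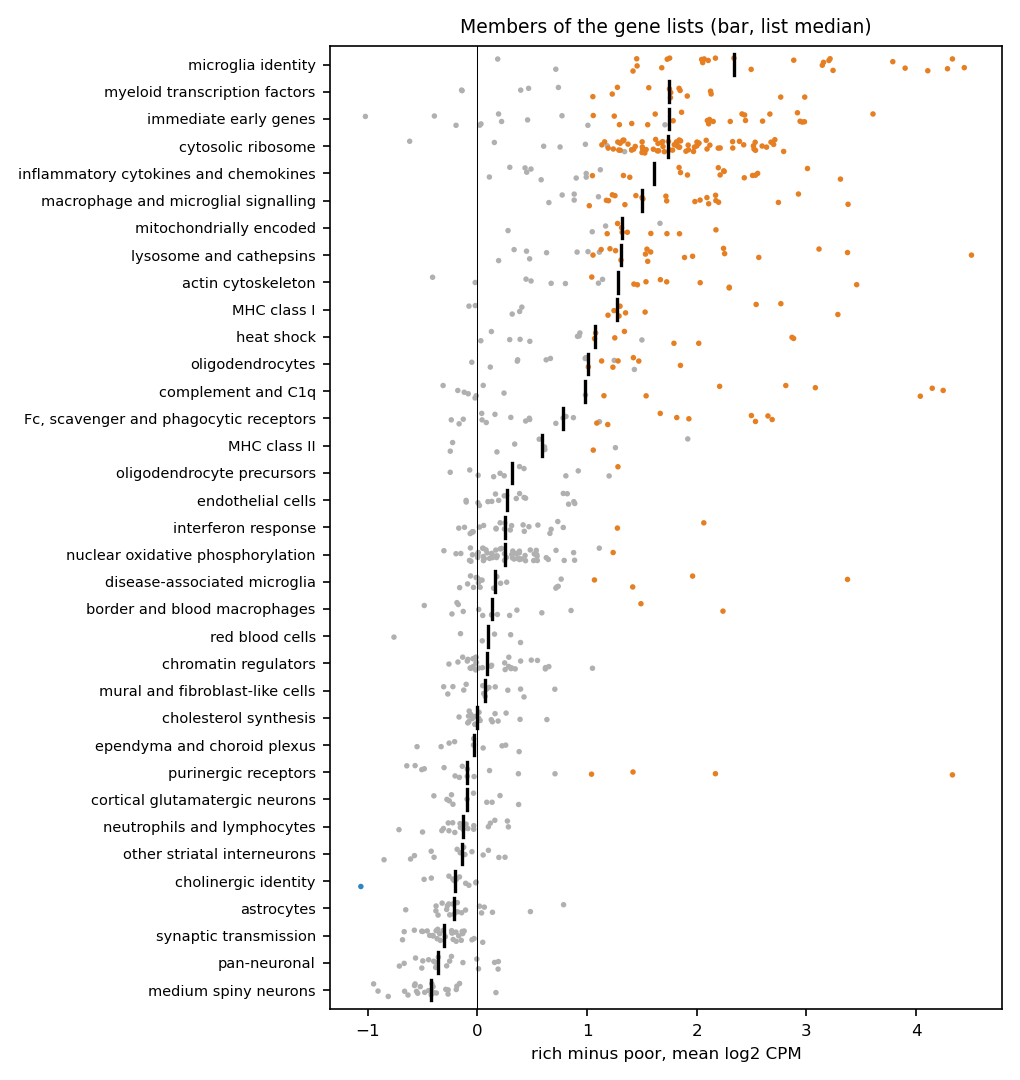
Difference between the class means in log2 CPM for each member of the 35 gene lists, with higher members in orange, lower members in blue, others in grey and the list median as a black bar. Microglial, ribosomal and immediate early lists lie to the right, with medians of 2.34, 1.74 and 1.75, and neuronal lists lie left of 0.

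Immediate early genes, which respond within minutes to stimulation, were higher for 23 of 34 (median 1.75). Zfp36, which destabilises cytokine mRNAs, was at 12.7, 32.1, 17.1, 33.0 and 48.5 times background in the rich libraries and at 4.12, 1.22, 1.49 and 2.96 in the poor ones, a difference of 3.61. Btg2 differed by 2.98, Jun by 2.96, Ier2 by 2.94, Egr1 by 2.92 and Atf3 by 2.41. Fos (chromosome 12, 85473890 to 85477273) was at 12.4, 33.5, 13.6, 26.7 and 43.1 times background in the rich libraries and at 7.75, 6.43, 3.26 and 5.93 in the poor ones, a difference of 2.11.

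Of the 34 immediate early genes, 31 had a positive and 3 a negative difference. The members that follow were chosen after their values were seen. Npas4, a transcription factor, was at 2.81, 5.30, 3.40, 2.29 and 1.97 times background in the rich libraries and at 7.57, 12.3, 2.81 and 6.17 in the poor ones. Its mean difference was -1.02, and only RES 3 among the poor libraries fell within the range of the rich. Arc, a synaptic protein, differed by -0.19 and Egr4 by -0.39, and Nr4a2 by 0.02. These 3 overlapped between classes, as did Npas4. Heat shock genes were higher for 8 of 17 (median 1.07), led by Hspa1a (2.88) and Hspa1b (2.87), near-identical copies whose reads cannot be assigned with certainty, and by Hspa5 (2.02), the chaperone of the endoplasmic reticulum.

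Cytosolic ribosome genes formed the broadest set, with 70 of 77 higher and a median of 1.74. Rplp1, of the ribosomal stalk, was at 58.8, 165, 64.4, 129 and 182 times background in the rich libraries and at 25.2, 20.5, 7.28 and 22.5 in the poor ones. Rps28 differed by 2.79, Rpl10 by 2.70 and Rps4x by 2.64. Many ribosomal genes have processed pseudogenes that can take part of their reads, and Rpl13a (0.15) was at or under 1.47 times background in every library.

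Nuclear genes of oxidative phosphorylation were higher for 1 of 59, namely Ndufa2 (1.24), with a median of 0.25. Of 13 mitochondrially encoded genes 9 were higher (median 1.32), including mt-Co2 (1.73) and mt-Atp6 (1.58), the same direction as the mitochondrial share of counts. Of 18 actin cytoskeleton genes, 10 were higher (median 1.28), led by Tmsb4x (3.46), which binds actin monomers, and Actb (2.30). Cholesterol synthesis was higher for 0 of 20 (median -0.00) and chromatin regulators for 0 of 32 (median 0.09), and both medians changed sign in some alternatives. Against the 2.14% of all genes that were higher, these counts of 0 and the 1 of 59 are near the background share and say nothing about their lists, which also holds for the counts of 0 in the cell type lists below.

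Markers of other cell types were read beside these lists. For border and blood macrophages, 2 of 16 were higher, Lyz2 (2.24) and Stab1 (1.49), and the defining markers Cd163, Lyve1 and Pf4 differed by 0.05, 0.13 and 0.59, at 0.867 to 4.23 times background in every library. Mrc1, the mannose receptor, was higher without overlap by 0.85. For neutrophils and lymphocytes 0 of 21 were higher (median -0.13), with S100a8, S100a9, Cd3e and Cd79a at 0.709 to 3.88 times background. For red blood cells 0 of 6 were higher, for endothelial cells 0 of 19 (median 0.27), and for astrocytes 0 of 22 (median -0.21). The astrocyte median was -0.57 without RES 3 and turned to 0.08 without RES 2. The mean of the endothelial list was higher in every rich library than in any poor one, but the nearest were 4.43 log2 CPM in SUS 1 and 4.41 in naive 3. In astrocytes Slc1a2, a glutamate transporter, was at 20.9, 35.0, 30.1, 37.5 and 25.9 times background in the rich libraries and at 82.3, 90.5, 11.6 and 29.3 in the poor ones, the highest and the lowest values both being in poor libraries.

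Oligodendrocyte genes went with the microglial ones in part. Of 18, 7 were higher (median 1.01), including Cnp (1.47), Cldn11 (1.42), Ugt8a (1.28), Mobp (1.24), Mbp (1.13) and Mog (1.01), most of them components of myelin. Mbp, a major myelin protein, was at 141, 190.1, 108, 330.3 and 127 CPM in the rich libraries and at 72.4, 97.9, 48.6 and 92.1 CPM in the poor ones. SUS 1 was highest, and SUS 3, with the highest Cx3cr1, was near the lowest of the rich. The classes did not overlap on this scale, but as a multiple of background Mbp was at 6.73 in the poor library RES 2, above the 5.77 of RES 1 and the 6.67 of SUS 3. The median density of the list was 3.70 to 11.4 times background in the rich libraries and 2.08 to 4.13 in the poor ones, which overlap, and its part in the differences of other genes was not tested. Of 12 genes of oligodendrocyte precursors, 1 was higher, Gpr17 (1.28).

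Many neuronal genes had a negative difference between the classes. Of 25 medium spiny neuron genes, 24 had a negative difference and 0 were higher or lower by the rule (median -0.42). Drd1, the D1 dopamine receptor, was at 1.55, 2.36, 2.23, 1.20 and 1.80 times background in the rich libraries and at 3.72, 5.34, 1.69 and 5.15 in the poor ones, a difference of -0.95. Again only RES 3 fell within the range of the rich libraries. Of 30 genes of synaptic transmission 29 had a negative difference (median -0.30), and of 19 pan-neuronal genes 15 (median -0.36). The means of the medium spiny neuron, synaptic and pan-neuronal lists overlapped between the classes. For medium spiny neurons the rich library naive 2 lay at 6.372 log2 CPM, above the poor libraries naive 3 at 6.367 and RES 3 at 5.280. Among all genes, 52.6% had a negative and 47.4% a positive difference. Without RES 3 the median of the medium spiny neuron list was -0.82, and without SUS 3 it was -0.29. Of 14 genes of other striatal interneurons 0 were higher or lower and 10 had a negative difference (median -0.14). The mean of that list was lower in every rich library than in any poor one, but the nearest were 3.690 log2 CPM in naive 1 and 3.692 in naive 3, and its median density was 1.82 to 2.18 times background in the rich libraries and 2.43 to 2.82 in the poor ones.

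The cells were labelled as cholinergic interneurons, whose defining genes were near background except for Chat in SUS 2. Of 12 genes of cholinergic identity, 12 had a negative difference (median -0.20), and the list means overlapped between the classes. The median density of the list was 0.81 to 1.47 times background in the rich libraries and 1.40 to 1.66 in the poor ones. Slc5a7, the choline transporter, was at 0.80005 to 1.46 times background and Slc18a3, the vesicular acetylcholine transporter, at 0.395 to 2.29 over the 9 libraries. Chat (chromosome 14, 32408203 to 32465989) was at 1.64, 1.54, 1.38, 1.27 and 0.877 times background in the rich libraries and at 1.93, 2.498, 1.88 and 7.86 in the poor ones. By the rule Chat was lower in the rich libraries, with a log2 difference of -1.06. The nearest libraries were 16.8 CPM in naive 1 and 17.8 CPM in naive 3. Among genes of at least 10 CPM the difference was -1.12, but Chat was not counted as lower there. Without SUS 2 the difference was -0.58, under the size limit, and within groups it was -0.24 in naive, -0.49 in RES and -2.79 in SUS. The other 14 genes named for a negative difference without overlap, from Smim6 (-0.91) to Tm6sf2 (-0.55), did not reach the size limit. Il34, a second ligand of Csf1r that neurons make, was among them, at 3.50, 3.62, 3.04, 4.12 and 2.65 times background in the rich libraries and at 5.42, 7.65, 4.40 and 5.61 in the poor ones, a difference of -0.68. The others include Mtfp1 (-0.71), Tmem63c (-0.65) and Cntnap3 (-0.64).

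**Figure D4:**
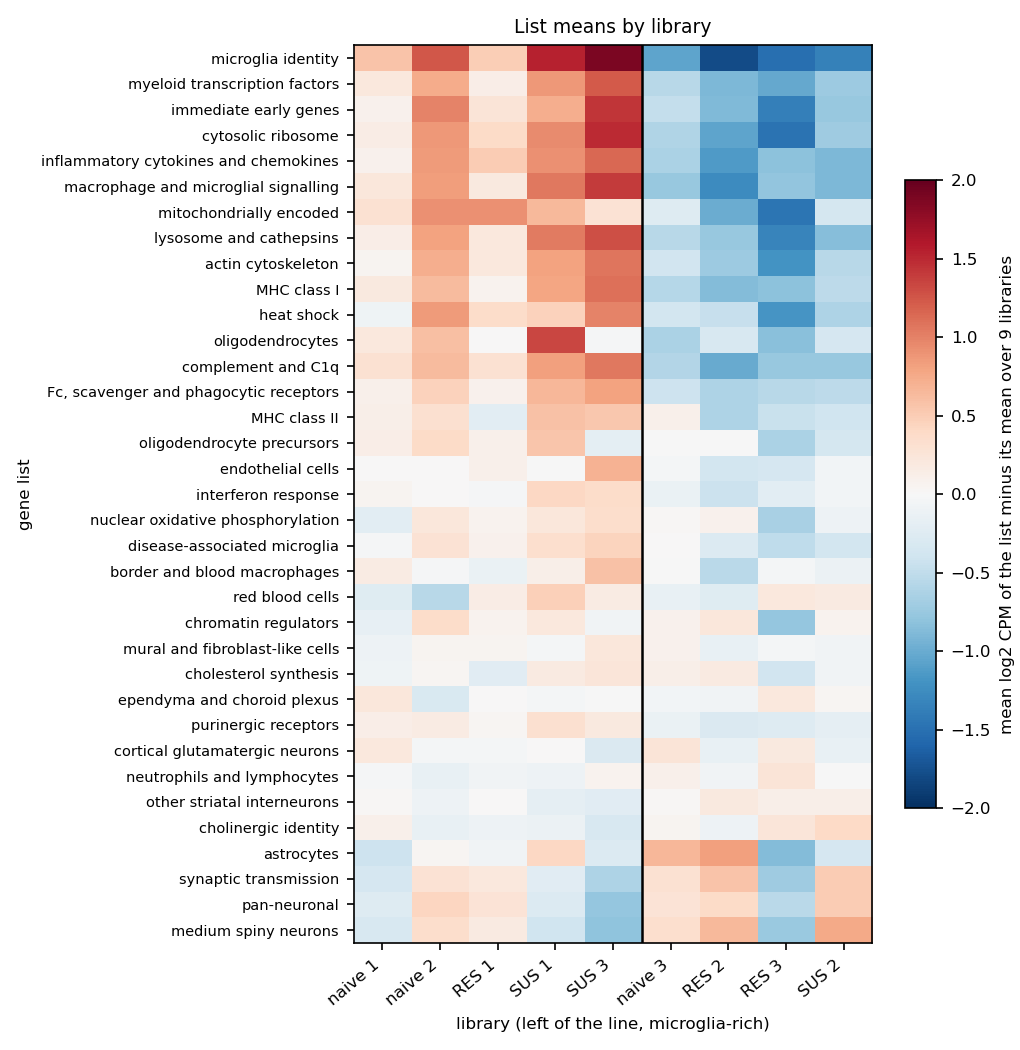
Mean log2 CPM of each of the 35 lists in each library, after subtracting the list's mean over the 9 libraries, with microglia-rich libraries left of the line. The microglial, ribosomal and immediate early lists at the top are higher in the 5 rich libraries than in the 4 poor ones, and the medium spiny neuron, pan-neuronal and synaptic lists at the bottom are lowest in SUS 3 and RES 3.

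Within the 5 rich libraries the amount of Cx3cr1 itself varied 3.14-fold in its density above background, and the ratio of other genes to Cx3cr1 was taken to see which kept step with it. The ratios share Cx3cr1 as denominator and are a description. Among nuclear genes over 3 times background in every rich library, the largest ratio over the smallest had a median of 1.54 for the 465 higher genes and 3.48 for the 2515 others. It was under 2 for 85.4% of the former and 10.2% of the latter. The higher genes were picked by a contrast that Cx3cr1 made. A gene of constant density above background would span the 3.14-fold of Cx3cr1 itself. The gap between higher and other genes is therefore no separate support. List medians were 1.37 for microglia identity, 1.38 for lysosome, 1.61 for cytosolic ribosome and 1.72 for immediate early genes. They were 2.32 for heat shock, 3.94 for oligodendrocytes, 4.46 for mitochondrially encoded genes and 11.5 for medium spiny neurons.

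Single genes, chosen after their values were seen, are given as examples. The ratio of Csf1r to Cx3cr1 was 1.41, 1.28, 1.25, 1.38 and 1.44 in naive 1, naive 2, RES 1, SUS 1 and SUS 3, a 1.16-fold range. That of Cd74 was 0.597, 0.543, 0.551, 0.597 and 0.572, although Cd74 had not separated the classes. Egr1 spanned 1.31-fold and Rplp1 1.51-fold. The ratio of Mbp spanned 3.71-fold, and that of Ppp1r1b, a phosphatase inhibitor of medium spiny neurons, ran from 0.0459 in SUS 3 to 0.641 in RES 1. Hspa1a spanned 3.02-fold, with naive 2 and RES 1 high.

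**Figure D5:**
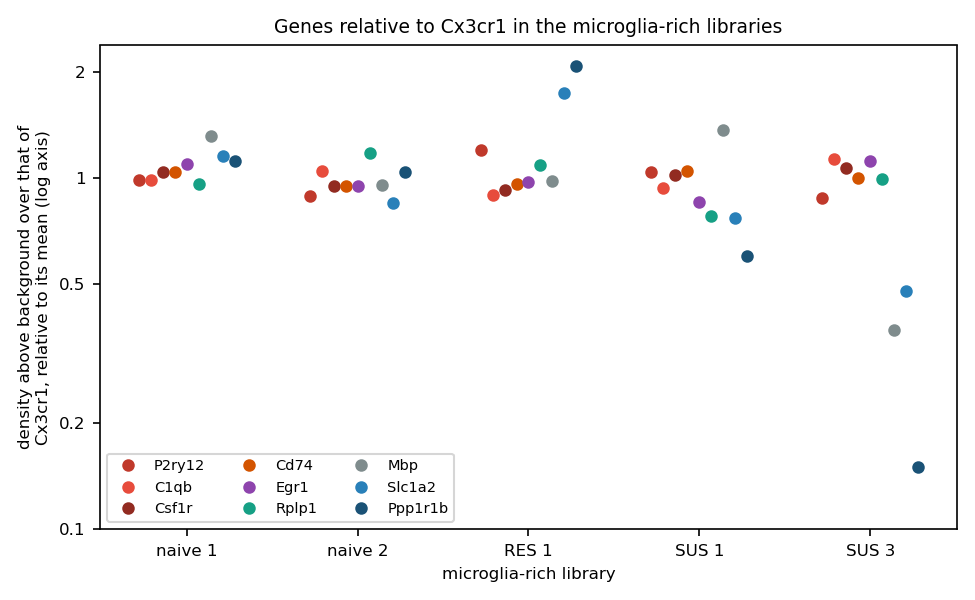
Density above background of 9 genes divided by that of Cx3cr1 in the 5 microglia-rich libraries, each relative to its own mean, on a log axis. P2ry12, C1qb, Csf1r, Cd74, Egr1 and Rplp1 stay close to 1 in all 5 libraries, and Mbp, Slc1a2 and Ppp1r1b are lowest in SUS 3.

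The labelled groups were then compared. The ratio of Cx3cr1 to background is the value that made the classes, and its range overlapped between all 3 groups. The mean log2 difference was -1.97 for RES minus naive (two-sided exact permutation p = 0.2, adjusted over 4 comparisons p = 0.4), 0.61 for SUS minus naive (exact p = 0.5, adjusted p = 0.667) and 2.58 for SUS minus RES (exact p = 0.2, adjusted p = 0.4). It was -0.68 for both cocaine groups minus naive (exact p = 0.774, adjusted p = 0.774). With 3 libraries against 3 the smallest possible p is 0.1, so those 3 tests could not have passed and say nothing about whether the groups differ. With 6 against 3 it is 0.0119. The sign for SUS minus naive turned without naive 3 (-0.59), SUS 1 (-0.10) or SUS 3 (-0.17), and that for cocaine minus naive without naive 2 (0.21).

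With class in the model, the edgeR quasi-likelihood test called 0 of 39210 genes (0%) in each of 5 comparisons, in the order RES with naive, SUS with naive, SUS with RES, both cocaine groups with naive, and the interaction of cocaine with class. The genes with an unadjusted p under 0.05 numbered 386, 1415, 1409, 711 and 826. Each number is a smaller share of the 39210 genes than the 0.05 that chance alone would give, so nothing is read from them. DESeq2 called 0, 0, 16, 0 and 0. All 16 were higher in SUS than in RES, and they include Csf1r, C1qa, C1qb, C1qc, Ctss, Cx3cr1, Mpeg1, Tmsb4x and Laptm5, all among the genes named for their class difference, besides H2-D1 (DESeq2 adjusted p = 0.00523), B2m and Egr1. The class term was cut from Cx3cr1 and holds only rich and poor, so spread inside a class stays in the test. Among rich libraries Cx3cr1 was at 22.6 times background in RES 1 and at 62.4 and 68.8 in SUS 1 and SUS 3. Among poor ones it was at 1.44 and 1.84 in RES 2 and RES 3 and at 2.97 in SUS 2. The part of this spread in the 16 calls was not tested. Without SUS 3, edgeR called 1 gene for SUS against RES, the predicted gene Gm28438. These comparisons share libraries, and their values are given side by side.

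The differences between pairs of groups in the microglial, ribosomal and immediate early lists were smaller with the class as a term than without it, which did not hold for cocaine minus naive. RES held 1 rich library and the naive and SUS groups 2 each, and these lists differed between the classes. A smaller difference in the pairs with RES therefore follows from the class rule and is not read as a result. The naive and SUS groups did not differ in their numbers of rich and poor libraries. Why the difference of that pair was smaller with the class was not tested, and it is not read as a part due to class. For SUS minus RES the median of microglia identity was 0.80 with the class and 1.69 without it, that of cytosolic ribosome 0.81 and 1.36, and that of immediate early genes 0.80 and 1.55. For RES minus naive the same 3 medians were -0.37, -0.41 and -0.39 with the class and -1.0, -0.75 and -0.86 without it. For SUS minus naive they were 0.52, 0.42 and 0.30 with the class and 0.77, 0.58 and 0.54 without it. For cocaine minus naive they were 0.14, 0.09 and 0.03 with the class and 0.12, 0.10 and 0.03 without it. In each of these comparisons 0 members passed the edgeR test.

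Of single genes, picked after the values were seen, Hbb-bs, the adult beta globin of red blood cells, was at 1.47, 1.51 and 1.57 CPM in naive 1 to 3 and 5.63, 5.43 and 7.38 CPM in SUS 1 to 3. The log2 difference of SUS minus naive with class was 1.98 ± 0.37 (SE), with an unadjusted edgeR p of 2.99e-05 and an adjusted p of 0.9999. In RES it was at 3.15, 2.36 and 2.99 CPM, so the 3 groups did not overlap, at 0.878 to 4.25 times background. How many of all genes separate the 3 groups in this way was not counted, so the lack of overlap is not read as a result. The red blood cell list had a median of 0.09 for SUS minus naive with class, and 0 of its 6 members passed the edgeR test. For Cd74 the log2 difference of RES minus naive was -1.31 ± 0.39 (SE), and it did not pass the edgeR test after adjustment. For the interaction of cocaine with class the smallest p values among genes of at least 10 CPM included those of Srgn, a proteoglycan core of blood cells (1.92 ± 0.47 SE), and the class II genes H2-Aa (1.82 ± 0.47 SE) and H2-Eb1 (1.66 ± 0.46 SE), which did not pass the edgeR test after adjustment. H2-Aa was at 26.3 CPM in naive 3 and at 9.02 to 12.4 CPM in the other poor libraries. H2-Eb1 was at 25.4 CPM in naive 3 and at 10.4 to 11.5 CPM in the other poor ones. Naive 3 was the only poor naive library, so the interaction rests on it. The cocaine difference was not shown to depend on the class.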

How the data were processed

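RNA was sequenced from 9 libraries in 3 groups of 3. The authors deposited 1 table of raw counts for 52636 mouse genes, whole numbers without scaling. Per the submitters' processing notes, FastQC, STAR 2.5.2b, HTSeq, DESeq, DESeq2 and the build GRCm38 were used, while their order, settings, strand handling and annotation release are not given in the sources used here. Positions, exonic lengths and biotypes came from GENCODE M21, which held 52489 of the gene IDs, and 147 IDs matched nothing.

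The classes, the 35 gene lists and the rule for naming genes were chosen with earlier results of these data known. Named genes were the 15 largest differences each way among genes without overlap between classes, at least 10 CPM and 3 times background, leaving out predicted genes, pseudogenes and olfactory or vomeronasal receptors. They also took up to 4 members per list by size of difference, 9 genes always named (Cx3cr1, P2ry12, C1qa, Chat, Slc5a7, Slc18a3, Tmem119, Aif1 and Fos), and up to 5 passing or 3 non-passing genes each way in the group tests. Other members of the lists are named as examples chosen after their values were seen, and a few that the rule gives are not reported here.

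Counts were filtered with filterByExpr by labelled group, which kept 39210 genes (a first pass filtered by class, given as an alternative), and scaled by TMM. Labelled groups were tested with the edgeR 4.0.16 quasi-likelihood F test under R 4.3.3 (limma 3.58.1), calling genes at a Benjamini-Hochberg adjusted p under 0.05, with DESeq2 1.42.0 as an alternative, and standard errors were derived from the F statistic. The test was tried on simulated data first, and how many known changes it recovered is not reported here. The median standard error of a log2 difference ran from 0.29 for cocaine against naive to 0.60 for the interaction. A lack of calls is therefore not read as a lack of difference. Other alternatives were other scalings, prior counts, filters and class rules, blocks, and leaving out each library in turn.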

Additional observations from a re-analysis of the deposited data

Results flagged for a closer look

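Of 146 values checked within a class for a library far from the others, 6 stood out, which is about the 1 in 20 that chance gives. Chat in SUS 2 was at 6.20 log2 CPM, above the other 3 poor libraries. In SUS 3, Mtfp1 at 2.21 log2 CPM and Slc6a7 at 2.91 log2 CPM lay below the other 4 rich libraries, and the mean of the endothelial list at 5.14 log2 CPM lay above them. In RES 3, the mean of the chromatin regulator list at 5.97 log2 CPM lay below the other 3 poor libraries, and the TMM factor of 1.58 lay above them.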

How the results depend on the processing

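Of 735 recomputed list medians, 722 moved by less than the spread within classes, 11 moved more, and the median of the purinergic receptors, whose list mean separates the classes, changed sign in the other 2 (0.0574 among genes of at least 10 CPM, 0.0320 without RES 3 and SUS 3 together, an alternative chosen after seeing the data). Medians close to 0 also changed sign in at least 1 alternative for red blood cells, cholesterol synthesis, chromatin regulators, astrocytes, cortical neurons, disease-associated microglia, border macrophages, mural cells and ependyma. Of 713 recomputed differences of named genes, 710 stayed within that spread, and 3 moved more, all under scaling by total nuclear counts. Genes higher in the rich libraries numbered 632 to 1040 over all alternatives (742 without RES 3 and SUS 3 together). A filter on low counts by class, likewise added later, kept 37676 genes and gave 833 higher and 78 lower. Genes lower numbered 258 under scaling by total nuclear counts, 131 under scaling to background, 177 with the labelled group as a block, 276 without RES 3 and SUS 3 together and 72 to 349 when 1 library was left out. Among genes of at least 10 CPM, where 15276 were tested, they numbered 20, of which 0 were among the 93. Classes from P2ry12, from C1qa or from a threshold of 10 were the same. Their recomputed values are part of the 735 and the 713 and could not have moved.

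For the ratio of Cx3cr1 to background, leaving out 1 library gave -3.24 to -1.08 for RES minus naive, -0.59 to 2.09 for SUS minus naive, 1.80 to 4.06 for SUS minus RES and -1.88 to 0.21 for cocaine minus naive. With class in the model, DESeq2 called 16 genes for SUS against RES, and leaving out 1 library gave 0 to 1 gene with edgeR. The cause of these changes was not tested. The interaction could not be fitted without naive 3, which left no poor naive library.

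Replicate numbers did not pair the libraries: same-numbered libraries had correlations of deviations of -0.17 to 0.17, and 0 of 9 libraries correlated best with their own number. With the replicate block, edgeR called 0 genes in the comparisons between groups. The interaction came closer to the threshold with that block than in the main model. It is not read, because naive 3 is the only poor naive library. Depth limits genes near background, where 1 to 3 times background cannot be read as expression.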
